A study of Mus musculus with 2 samples.

Results

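Sites that pair with the seed of the miR-15/16 microRNA family were examined in a map of Ago2 on the transcripts of mouse embryonic stem cells. A site is a stretch of an expressed transcript that matches bases 2 to 8 of mouse miR-15a-5p and miR-16-5p, either as a 7mer or as an 8mer, which has in addition an A opposite the first base of the microRNA. The deposited table of predicted sites held 10270 such positions among 1619021 distinct positions of all kinds. After 113 7mers that lie inside a listed 8mer were left out, 10157 sites remained, 8995 7mers and 1162 8mers, in 5426 of 15271 genes. The choice rests on sequence alone and uses no measured value. Binding was measured by iCLIP, in which a protein is crosslinked to RNA in cells and the RNA it holds is cut with RNase I, recovered with antibodies and sequenced. The cells express a single Argonaute, human Ago2 under doxycycline control, as a FLAG-HA fusion in the clonal line TT-FHAgo2 and without a tag in the clonal line TT-Ago2. Both lines were kept at 0.1 µg/mL doxycycline and induced at 2.5 µg/mL for 24 h, and both went through serial FLAG and HA immunoprecipitation. There was 1 library per line, so the spread between replicate cultures is unknown, each line is 1 clone, and no test between the lines or between sites is given.

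Argonaute proteins hold a microRNA so that its seed is free to pair with messenger RNA, most often in the 3' UTR, and a bound transcript is repressed and degraded. The miR-15/16 family is best known for holding back the cell cycle and survival: cyclins, Cdc25a, E2f factors, Chek1 and Bcl2 are textbook targets, and in early embryos and stem cells the family also acts on activin, TGF-beta and Wnt signalling. Its seed is shared by several microRNA genes, and a second family, miR-103 and miR-107, has nearly the same seed moved by 1 base.

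The mature microRNAs below are shown because their seeds define the sites and set apart the neighbouring family. They are from RefSeq (GRCm38.p6), which lists 10 mature mouse microRNAs with the miR-15/16 seed and 2 with the miR-103 and miR-107 seed. Capitals mark bases 2 to 8.
mmu-miR-15a-5p: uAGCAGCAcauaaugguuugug
mmu-miR-15b-5p: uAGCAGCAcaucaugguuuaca
mmu-miR-16-5p: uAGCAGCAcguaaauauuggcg
mmu-miR-195a-5p: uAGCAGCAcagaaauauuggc
mmu-miR-322-5p: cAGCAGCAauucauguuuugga
mmu-miR-497a-5p: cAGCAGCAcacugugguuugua
mmu-miR-103-3p: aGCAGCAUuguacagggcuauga
mmu-miR-107-3p: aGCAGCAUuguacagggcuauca

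The match to the miR-15/16 seed is TGCTGCT and its 8mer is TGCTGCTA. The miR-103 and miR-107 match is ATGCTGC, so where an A precedes a miR-15/16 site the sequence ATGCTGCT serves both families. The match can also overlap itself in repeats of the triplet TGC. Which of the microRNAs with a shared seed was bound at a site cannot be told apart here. The next sequences were pieced together from overlapping deposited entries (mm9) and show 6 kinds of context, with the match in capitals. They are a site with many reads and a repeat of the triplet before it, a site between matches of other families, a site standing alone, a site shared with miR-103 and miR-107, a coding site and a coding pair in tandem.
Pip4p1, 3' UTR, chr14:51547172-51547190, minus strand: tgcTGCTGCTAttgcactt
Ppp6c, 3' UTR, chr2:39052756-39052779, minus strand: agcacttTGCTGCTgaaatgctgc
Cbx6, 3' UTR, chr15:79654391-79654411, minus strand: TGCTGCTcttcaatattgtat
Frrs1, 3' UTR, chr3:116606644-116606652, plus strand: aTGCTGCTA
Sdhc, coding, chr1:173066254-173066266, minus strand: cggcacTGCTGCT
Igfbp2, coding, chr1:72871209-72871218, plus strand: TGCTGCTgct

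The values per site rest on 789000 reads of the tagged library. A site with at least 1 read is called supported, and a site with 0 reads may have had up to 3.802 rpm, the library's reads scaled to a common total, at this depth (3 counts). Shares are given with exact (Clopper-Pearson) 95% binomial intervals. They cover counting error only, since reads amplified by PCR are not independent molecules and neighbouring sites share reads. As background, the same table lists 8mers that extend none of the 50 seeds of its 7mers. The 724083 of these that overlap no listed match serve as control. All 11 stem cell markers on a fixed list, Pou5f1, Nanog and Sox2 among them, were in the table at 40.3 to 1655 FPKM (median 295). Of 21 markers of endoderm, trophectoderm, fibroblasts and neural cells, 12 were listed, from 0.101 FPKM for Foxa2 to 45.01 FPKM for Vim. After Vim the highest of these 12 were Tubb3 (40.1 FPKM), Tfap2c (13.9), Krt8 (9.85) and Sparc (6.30). Gata6, Sox17, Cdx2, Elf5, Col1a1, Col3a1 and Sox1 were not listed in the table, which holds only transcripts of at least 0.1 FPKM.

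Sites of miR-15/16 held reads most often in 3' UTRs. Of 3889 3' UTR sites, 1164 were supported (29.9%, interval 28.5 to 31.4%), against 11.5% of control 8mers there and 19.6% of the 7mers and 8mers of the other 49 listed seeds. In coding sequence 747 of 3774 sites were supported (19.8%, 18.5 to 21.1%), against 8.46% of control. In 5' UTRs the count was 109 of 795 (13.7%, 11.4 to 16.3%), against 7.01%. In long noncoding RNAs it was 25 of 1397 (1.79%, 1.16 to 2.63%), against 0.505%. In pseudogenes 4 of 302 sites were supported (1.32%, 0.362 to 3.36%), which is the background there (1.31%). In the other 4 regions the miR-15/16 interval lies above the control share.

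**Figure D1:**
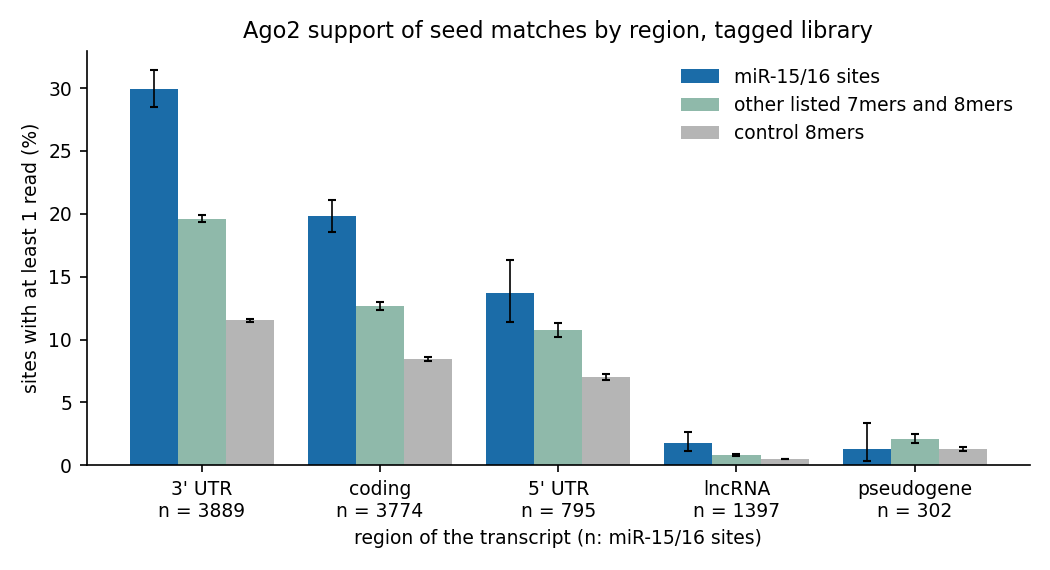
Share of sites with at least 1 read (percent) in each region of the transcript for miR-15/16 sites, for the 7mers and 8mers of all other listed seeds and for control 8mers. Bars are shares in the tagged library and error bars are exact 95% binomial intervals. The miR-15/16 bar is the highest of the 3 in 3' UTRs (29.9%), coding sequence (19.8%), 5' UTRs and long noncoding RNAs, and is at the control share in pseudogenes.

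Reads were concentrated in few sites. In all, 2049 of the 10157 sites were supported (20.2%) and 1185 of these had 1 read, while 222 had at least 5 and 77 at least 10. Summed over sites, the reads came to 5111, where a read spanning overlapping sites is counted at each. The 12 sites with most reads held 513 of them (10.04%). Sites in 3' UTRs were 38.3% of all and took 70.5% of the reads, whereas coding sites were 37.2% of all and took 24.6%. The 8mers were 11.4% of all sites and took 22.6%.

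Support depends on transcript level, so the number of supported sites was divided by the number that control 8mers of the same region and expression stratum give. This ratio was 2.52 (2.40 to 2.64) in 3' UTRs, 2.42 (2.26 to 2.58) in coding sequence and 1.91 (1.59 to 2.27) in 5' UTRs. The size depends on the control chosen: against only the 23 control 8mers with 3 T and 4 or 5 G or C, the makeup of the match itself, the 3' UTR ratio was 1.94 (1.85 to 2.03). This control set was chosen after seeing the data. The base makeup of the site therefore moves with part of the difference, and its part at single sites was not tested.

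More pairing went with more support. In 3' UTRs the bare 6mer core outside any longer match was supported at 18.2% of 5607 positions (17.2 to 19.2%), the 7mer at 28.6% of 3378 (27.05 to 30.1%) and the 8mer at 38.9% of 511 (34.7 to 43.3%). These 3 intervals do not overlap. Over control at the same expression the ratios were 1.53 (1.45 to 1.62), 2.39 (2.27 to 2.52) and 3.39 (3.02 to 3.77). Supported 8mers also held more reads, with a median of 2 and a highest count of 89, against 1 and 76 for 7mers. In coding sequence the order was the same but the last step was smaller, with 13.5% for the 6mer core, 19.4% (18.0 to 20.7%) for the 7mer and 23.4% (19.4 to 27.9%) for the 8mer, and the last pair of intervals overlaps. In 5' UTRs the 7mer (13.7%) and the 8mer (14.0%, 8 of 57) could not be told from each other or from the 6mer core (13.2%).

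Among single 8mers with at least 100 3' UTR sites, TGCTGCTA had a higher share than every one of 774 control 8mers, whose median was 11.6% and whose highest was 28.7%. Of 46 listed 8mers, 4 were higher. These were AGCACTTA (61.6%), GCACTTTA (57.4%), GGCACTTA (51.2%) and GTGCAATA (50.9%), the first 3 of which match seeds of the miR-17 and miR-290 to 302 kind.

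The A before the match, which makes a site shared with miR-103 and miR-107, did not go with a difference beyond counting error in 3' UTRs. Such shared sites made up 1542 of the 10157. In 3' UTRs 189 of 639 shared sites were supported (29.6%, 26.1 to 33.3%), against 975 of 3250 miR-15/16 sites without it (30%, 28.4 to 31.6%). A miR-103 and miR-107 match without the miR-15/16 match was supported at 183 of 968 positions (18.9%, 16.5 to 21.5%), below both. In coding sequence the corresponding shares were 18.9% (105 of 555), 19.9% (642 of 3219) and 15.3% (168 of 1096), with overlapping intervals for the first and each of the others. Among 3' UTR 8mers, 43 of the shared ones (41.7%, 32.1 to 51.9%) and 156 of 408 others (38.2%, 33.5 to 43.1%) were supported. The shared 8mers were more conserved, with a median PhastCons score (0 to 1, 1 for a base conserved among vertebrates) of 0.60 against 0.18.

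**Figure D2:**
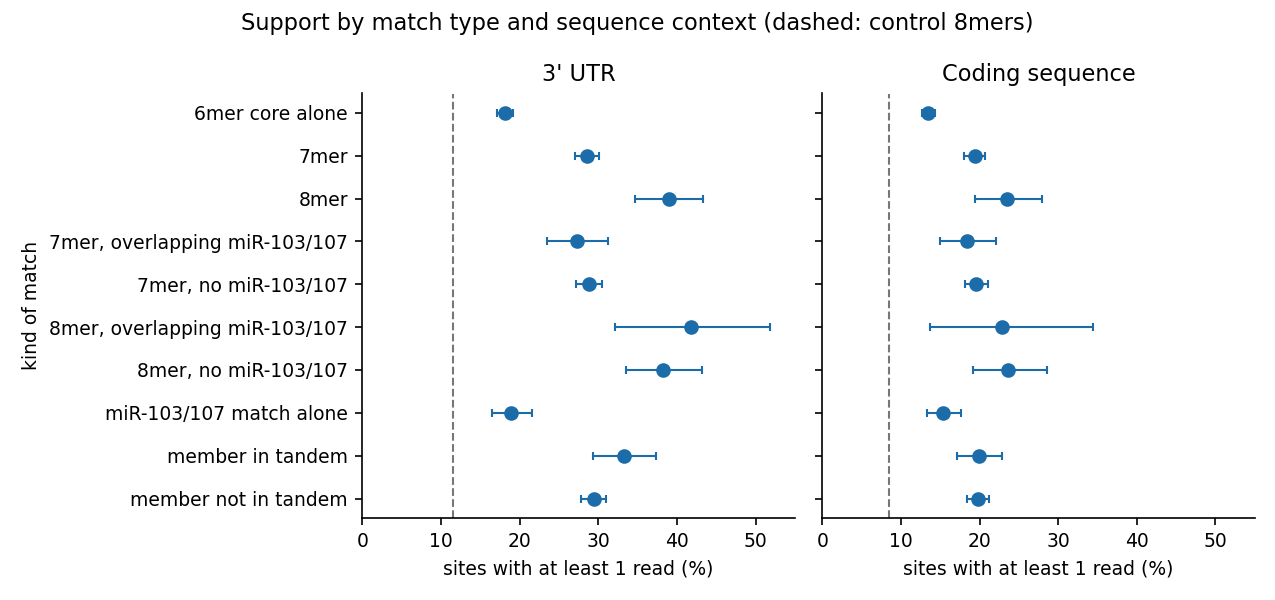
Share of sites with at least 1 read (percent) by kind of match in 3' UTRs and in coding sequence, with exact 95% binomial intervals; the dashed line is the control 8mer share (11.5% and 8.46%). In 3' UTRs support rises from the 6mer core (18.2%) to the 8mer (38.9%), and sites shared with miR-103 and miR-107 lie beside those that are not.

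Triplet repeats were a large group of sites. Of all sites, 1709 (16.8%) overlapped another, in 660 runs. The share was 14.0% in 3' UTRs, 20.4% in coding sequence and 23.6% in 5' UTRs. In 3' UTRs 181 of 545 sites in tandem were supported (33.2%, 29.3 to 37.3%), against 29.4% (27.9 to 31.0%) of the others. In coding sequence the shares were 19.9% (153 of 770, 17.1 to 22.9%) and 19.8%. Tandem here means overlap between listed entries; the table seldom lists the 7mer that precedes an 8mer in a repeat, so the Pip4p1 8mer printed above, with the match at 2 places, is not counted as in tandem. The longest runs had nearly no reads. Of 9 runs of at least 8 sites, 2 of them in pseudogenes, 8 had 0 reads at every site. Among these 8 were the runs of Mapkap1 (21 sites), Fgd4 (19) and Ralgps1 (15) in 3' UTRs. The exception was a run of 10 sites in the 5' UTR of Pcolce, an enhancer of procollagen processing, where 5 sites had 2 reads each. The labels do not say how reads mapping to repeats were treated, and the part this has in these counts was not tested. The long runs were not compared with shorter ones at the same transcript level.

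Support of 3' UTR sites climbed with the level of the transcript. It was 11.5% of 1048 sites at 0.1 to 1 FPKM, 25.6% of 929 at 1 to 4, 37.7% of 1142 at 4 to 16, 48.2% of 641 at 16 to 64 and 51.2% of 129 above 64 FPKM. Control 8mers went from 4.24% to 27.7% over the same strata. The ratio of the shares was thus 2.72 in the lowest stratum, 2.93 in the next and 1.85 in the highest. In coding sequence the shares went from 11.8% to 45.9% and the ratio from 2.81 to 1.95. FPKM is that of the isoforms that hold the site, and a site listed for several was given the highest.

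**Figure D3:**
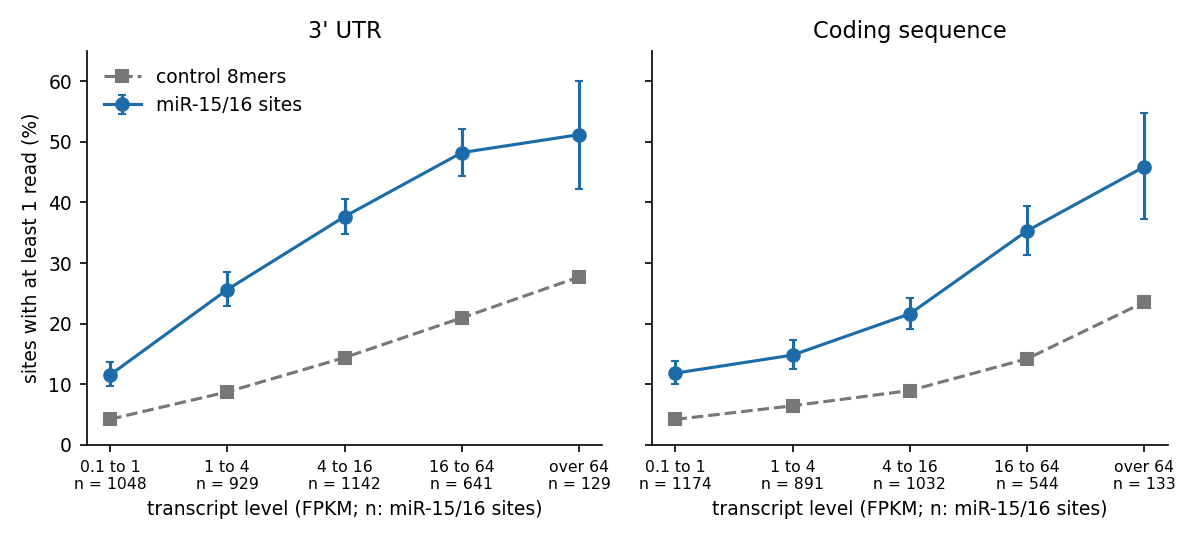
Share of sites with at least 1 read (percent) against transcript level (FPKM strata) for miR-15/16 sites (circles, exact 95% binomial intervals) and control 8mers (squares). In 3' UTRs the miR-15/16 share goes from 11.5% to 51.2% and the control share from 4.24% to 27.7%, so both climb together.

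Conservation went with support in 3' UTRs, and did so for control 8mers as well. Of 997 3' UTR sites with a PhastCons score above 0.9, 41.9% (38.8 to 45.1%) were supported, against 23.7% (21.9 to 25.5%) of 2143 sites at up to 0.1. Control 8mers had 17.8% and 9.48% in these strata, so the ratio was 2.35 in the first and 2.49 in the second. In coding sequence, where 2433 of 3774 sites scored above 0.9, the shares were 20.9% above 0.9 and 19.0% at up to 0.1, and the ratio was 2.22 and 3.49. Of 3' UTR 8mers, 36.6% scored above 0.9, against 24.0% of 7mers and 17.7% of control 8mers. Match type, conservation and expression were also combined into classes. Of 98 3' UTR 8mers above 0.9 in score and 4 FPKM in level, 60 were supported (61.2%, 50.8 to 70.9%) and 22 lay in an enriched cluster (22.4%). Of 1334 7mers below both, 200 were supported (15.0%, 13.1 to 17.02%) and 13 lay in a cluster (0.97%). Control 8mers in these classes were supported at 23.7% and 5.52%.

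Among the 50 listed seeds the miR-15/16 match had the most sites and the most supported sites, both in 3' UTRs and in coding sequence. By the share of sites supported it ranked 7 in 3' UTRs and 6 in coding sequence. The highest, GCACTTT, had 57.1% (54.7 to 59.3%) of 1821 3' UTR sites supported and 50.5% of 610 coding sites. The miR-103 and miR-107 match ATGCTGC, shared sites included, had 23.2% (21.2 to 25.4%) of 1607 3' UTR sites and 16.5% of 1650 coding sites.

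The site with the most reads was an 8mer in the 3' UTR of Tmem55b, now Pip4p1, which encodes a phosphatidylinositol bisphosphate phosphatase of lysosomes. It had 89 reads in a transcript of 45.1 FPKM and a PhastCons score of 1. The sequence printed above has the 7-base match at 2 places 3 bases apart, the second with the A. Txnip, a regulator of glucose uptake, had 76 reads at a 7mer of low conservation (0.0027) at chr3:96365531-96365537. That 7mer lies in a cluster of 828 nt that holds 10 other listed matches, so its reads are not those of 1 site alone. A930001N09Rik, now Crebrf, a regulator of CREB3, had 55 reads at a conserved 8mer (chr17:26910850-26910857) in a transcript of 4.38 FPKM. Its cluster holds 4 other listed matches, AGCACTT and GCACTTT among them, and a match of TACTTGA lies within 30 nt of the site. Aldoa, a glycolytic aldolase at 616 FPKM, had 51 reads at a 7mer (chr7:133938831-133938837).

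Smad7, the inhibitor of TGF-beta and BMP receptors, had 41 reads at a 3' UTR 8mer (PhastCons 0.999, 15.2 FPKM). Slc25a42, a mitochondrial coenzyme A carrier, had 39 reads at a 7mer although its isoform was listed at 0.223 FPKM. Ppp6c, the catalytic subunit of protein phosphatase 6, had 38 reads at the 7mer printed above. That 7mer abuts a match of AGCACTT, shares its first base with a match of GCACTTT and lies near a miR-103 and miR-107 match. The noncoding RNA linc444 had 35 reads at an 8mer. The Polycomb gene Cbx6 had 23 at a 7mer with no other listed 7mer or 8mer within 30 nt. The ferric reductase gene Frrs1 had 23 at an 8mer shared with miR-103 and miR-107. Nr1d2, a nuclear receptor of the circadian clock, had 22 at a 7mer. Each of the sites named here lies in an enriched cluster.

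Enriched clusters are stretches where the authors found more tagged than untagged reads at p under 0.05. Of 3' UTR sites, 155 of 3889 lay in one (3.99%, 3.39 to 4.65%), against 0.688% of control 8mers and 2.85% of the other listed sites. The share was 9.20% (6.84 to 12.04%) for 8mers and 3.20% (2.63 to 3.85%) for 7mers. In coding sequence it was 18 of 3774 (0.477%, 0.283 to 0.753%), against 0.167% of control and 0.623% (0.554 to 0.697%) of the other listed sites. Coding sites of this family thus stood above the other listed seeds in reads but not in clusters. Of the 5995 clusters within single exons, 174 overlapped a miR-15/16 site (2.90%), in 157 genes. The authors placed 159 of them in 3' UTRs (91.4%, against 63.5% of all clusters) and 12 in coding sequence. They had a median of 8 tagged reads, against 7 over all clusters, and a median width of 48 nt. In 104 no other listed 7mer or 8mer was present, and 57 held an 8mer.

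The untagged library is seen through the authors' enrichment values, which give it 45 reads over these clusters against 2106 tagged. Some of these clusters overlap each other, as in Ccne1 and Ubn1, so these sums may count a read more than once. In 148 of the 174 (85.1%) the number was 0, against 85.7% of all clusters. Clusters were listed only where tagged reads exceeded untagged reads, so low untagged numbers and high folds follow from that choice. They are not separate evidence of binding at these sites. The Pip4p1 cluster had 77 tagged reads and 0 untagged, at least 25.7-fold more when 0 is taken as 3 counts per cluster. That is fewer than the 89 reads listed at the site within it, so the site table and the cluster list do not count the same reads, and the labels do not state the window used per site. The Crebrf cluster had 51 and 0, the Ppp6c cluster 38 and 0 and the Slc25a42 cluster 31 and 0, at least 17-fold, 12.7-fold and 10.3-fold more. The Crebrf and Ppp6c clusters also hold matches of AGCACTT and GCACTTT. Smad7 had 37 and 1, and Cdkn1a, which encodes the cyclin-dependent kinase inhibitor p21, had 41 and 1. The Cdkn1a cluster also holds a match of GGCACTT, its miR-15/16 site had 17 reads, and its most-crosslinked position lay 55 nt downstream of that site. Epb4.9 (Dmtn, the actin-bundling dematin) had 28 and 0 and Eif2b2, a subunit of the translation factor eIF2B, 27 and 0. The untagged number was highest for Txnip (14 against 234 tagged, at 65.2 FPKM) and Aldoa (4 against 42, at 616 FPKM). Serbp1 at 703 FPKM had 1, and a link of the untagged number to transcript level was not tested.

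The position with most crosslinks in a cluster often lay at the start of the seed match or in the 20 nt before it, more so on the minus strand. In 135 of these clusters up to 200 nt wide the authors list such positions, which gave 219 distances to miR-15/16 sites. Of these, 109 (49.8%) fell in the 20 nt before the match, 47 (21.5%) inside the 7 bases and 30 (13.7%) in the 20 nt after it. Inside the match, 44 were at its first 2 bases and 3 at the other 5. The single most frequent position was the first base (26). For the other listed seeds, with 2920 distances in 1495 clusters, 43.7% were in the 20 nt before, 10.5% at the first 2 bases, 5.99% at the other 5 and 21.8% in the 20 nt after. Where the site was the only listed match of its cluster (76 clusters), 49.5% were before it, 25.2% at the first 2 bases and 0 at the other 5. Positions are taken as offsets from the lower coordinate on both strands, a reading chosen from these data, and may be off by 1 nt. A cluster with several sites or several listed positions gives several distances. Clusters that overlap each other can give the same distance again, as in Ccne1 and Cdc25a, and such repeats were not removed. The plus strand does not depend on this reading. There 38.7% of 106 distances were in the 20 nt before the match and 21.7% at its first 2 bases (median -0.5 nt). On the minus strand 60.2% of 113 were in the 20 nt before it (median -5 nt, or 15 nt if counted from the other end). The Pip4p1 cluster is on this strand. Its listed position lay at 9 nt, past the 8mer, or at -3 nt if counted from the other end. The other listed seeds were not split by strand.

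**Figure D4:**
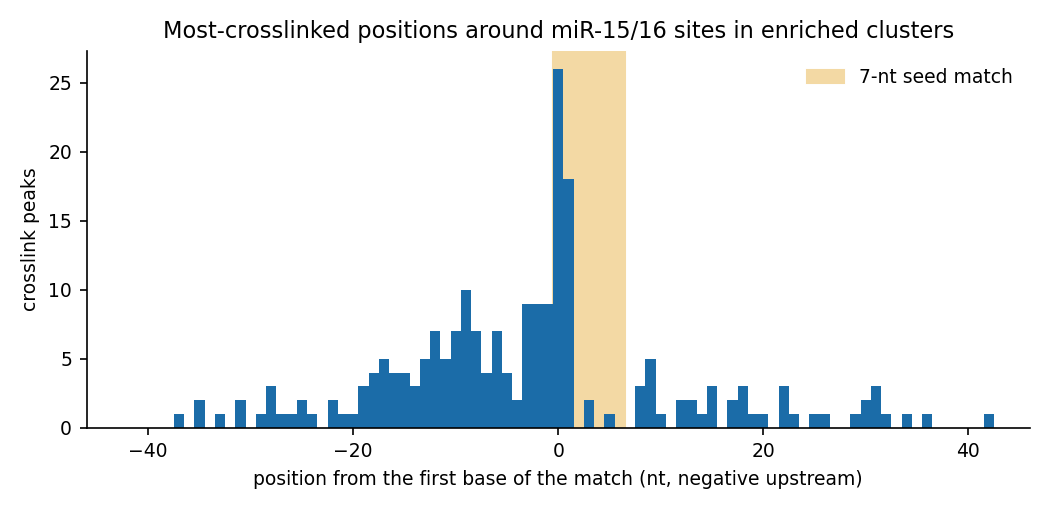
Number of most-crosslinked positions by distance (nt) from the first base of a miR-15/16 match in enriched clusters; the shaded band is the 7-base match, negative values lie upstream in the transcript, and 5 distances beyond 45 nt are not drawn. The counts are highest at the first base (26) and are spread over the 20 nt before it, with 3 at the last 5 bases of the match. Distances on the minus strand depend on a reading of the positions that was chosen from these data. A distance given by overlapping clusters is counted for each.

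In coding sequence the site with the most reads had 21, in Sdhc, a subunit of succinate dehydrogenase, at a 7mer outside any enriched cluster. Igfbp2, a binding protein of insulin-like growth factors, had 15 reads at each site of the tandem pair printed above, in a cluster of 15 tagged and 0 untagged reads. Mthfd1, an enzyme of folate metabolism, had 14 at a coding 8mer in a cluster of 12 and 0. These 3 were named after their values were seen. Tmem214 had 34 reads summed over 5 of its 6 coding sites, up to 12 at one, although its isoform was listed at 0.327 FPKM. Ankrd52, a regulatory subunit of protein phosphatase 6, had reads at 5 of 9 coding sites, with 4 at the highest.

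Genes with the most supported sites were of 2 kinds. In Luzp1 7 of 8 3' UTR sites were supported, in 6 separate places, with 22 reads in all and 6 at the highest. In Uhmk1, a kinase gene, 5 of 6 3' UTR sites and its 1 coding site were supported, in 6 places, and its conserved 8mer alone had 14 of 24 reads. In others the count came from 1 run that shares its reads. Med1, a Mediator subunit, had a run of 5 sites with 5 reads at each, all in 1 cluster of 5 tagged and 0 untagged reads. Tacc1 and Angel1 had 8 supported sites of 9, with runs of 6 and 7 among them and at most 2 reads at a site. Pla2g15 had 5 of 5 in 1 run, and Sephs2 and Ahcyl2 had runs of 5 and 4. Phf15, now Jade2, had 7 of 8 with 1 read each, in 2 runs. The genes with the most sites were noncoding transcripts with nearly no reads. ENSMUST00000154380 had 73 sites with 2 supported, linc211 60 with 0, linc142 50 with 0, ENSMUST00000155549 47 with 2 and linc216 42 with 0.

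At the level of genes, 1538 of the 5426 with a site had at least 1 supported (28.3%). This share was 11.2% for genes at 0.1 to 1 FPKM, 37.4% at 4 to 16 and 52.6% above 64, so gene lists are read against their expression. Of 22 textbook targets of the family, 20 were in the table, 16 had a site and 12 of these had a supported one (75.0%), 6 with a site in a cluster. Their median was 11.7 FPKM, against 3.28 FPKM over all genes with a site. The 5426 genes had a median of 1 site, and these 16 had 25 sites in all.

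Among cell cycle targets, Ccne1 (cyclin E1, 92.2 FPKM) had 16 reads at its only site, a fully conserved 8mer in its 3' UTR (chr7:38883042-38883049). Its clusters of 14 and 12 tagged reads, with 1 untagged each, overlap each other. E2f3 had 15 reads at a conserved 8mer (chr13:29999256-29999263) and 3 at a 7mer, and Cdc25a, the phosphatase that activates cyclin-dependent kinases, had 11 at an 8mer and 0 at a 7mer. Chek1, a checkpoint kinase, had 7 at an 8mer outside any cluster, and Cdc27, a subunit of the anaphase-promoting complex, had 1. Ccnd1 had 0 reads at its 7mer at 38.0 FPKM, and Ccnd2 had 0 at a conserved 8mer and at a coding 7mer at 5.997 FPKM. Ppm1d, a phosphatase of the p53 response, had 0 at a conserved 8mer at 12.2 FPKM. The cyclin E1 and D-type cyclin sites thus differed in reads in this library, and with 1 library that difference has no replicate check. Bcl2, the survival gene most linked to the family, had a conserved 8mer with 0 reads, in a transcript listed at 0.112 FPKM.

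In the signalling targets, Smad7 had 2 further reads at a 5' UTR 7mer besides the 41 in its 3' UTR. Smurf1, a ubiquitin ligase for Smad proteins, had 4 at a conserved 8mer and 0 at a 7mer of low conservation. The activin receptor gene Acvr2a had 1 at one of its 2 conserved 7mers and 0 at the other. Wnt3a had 3 at a 3' UTR 8mer and 0 at a coding 8mer at 0.385 FPKM. Vegfa, the angiogenic growth factor, had 10 at a conserved 8mer and a cluster of 9 tagged and 0 untagged reads. Arl2 had 6 at a 7mer, 2 at an 8mer upstream of it and 1 at the remaining site, and Fgfr1 had 2 at a 7mer. In E2f3, Cdc25a and Smurf1 the 3' UTR 8mer had more reads than the gene's 3' UTR 7mer, and in Smad7 more than its 5' UTR 7mer. In Arl2 the 8mer (2 reads) lay between the 7mers (6 and 1), and in Ccnd2 the 8mer and the coding 7mer both had 0.

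**Figure D5:**
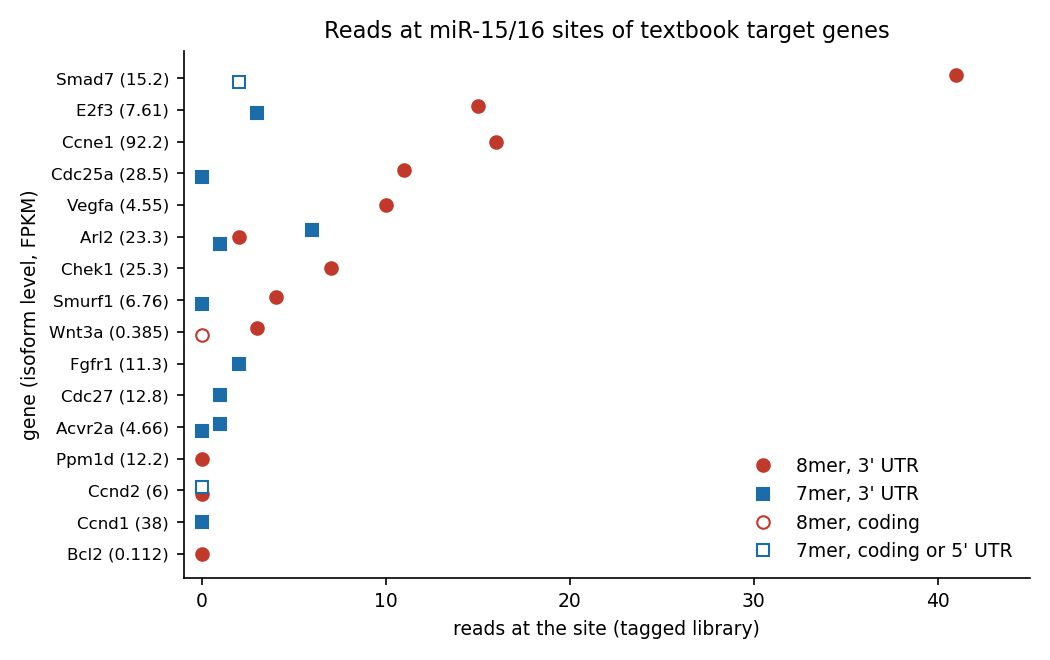
Reads at each miR-15/16 site of the 16 textbook target genes with a site, against the gene, with its isoform level (FPKM) in brackets; circles are 8mers, squares 7mers, filled in 3' UTRs and open elsewhere. The Smad7 8mer is highest (41 reads), followed by Ccne1 (16) and E2f3 (15), and the sites of Bcl2, Ccnd1, Ccnd2 and Ppm1d are at 0.

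In wider gene lists, the cell cycle list (22 genes with a site, median 9.84 FPKM) had a supported site in 15 and a cluster in 7. The 15 are 68.2%, against 37.4% of all genes with a site at 4 to 16 FPKM. Beyond the targets above, Cdkn1a had 17 reads at its site and Btg2, an antiproliferative gene, had 12 over 2 sites. In contrast the coding 8mer of E2f4 (110 FPKM) and the 3 sites of Btg1 (20.6 FPKM) had 0. Of 19 TGF-beta, activin and BMP genes (median 7.35 FPKM) 7 had support (36.8%), near the 37.4% of all genes at 4 to 16 FPKM. Besides Smad7, Ski had 4 reads and Acvr1b 2, and there were 0 in Lefty1, Lefty2 and Id3, whose sites are outside 3' UTRs. Of 9 Wnt genes (median 2.77 FPKM) 3 did (33.3%, against 22.6% of all genes with a site at 1 to 4 FPKM). Lrp6, a Wnt co-receptor, had reads at all 4 of its sites (8 in all), whereas Gsk3b and Apc had 0.

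Of 14 genes of the microRNA pathway and mRNA decay (median 11.2 FPKM, with 34 sites and a median of 2 a gene) 12 had a supported site, at low counts: 8 reads over 2 of 6 sites of Cnot1, 6 at a site of Cnot6l in a cluster, 4 in Tnrc6b and 3 in Dcp1a. Tarbp2 and Edc3 had 0. Of 6 apoptosis genes (median 1.10 FPKM) 2 did, Bik (4 reads) and Bcl2l2 (3 reads), with 0 in Birc5, Xiap and Bcl2l11. Of 14 FGF, insulin and PI3K genes (median 8.84 FPKM) 7 did, led by the FGF feedback inhibitor Spry4 with 10 reads in a cluster of 10 and 0, while the 3' UTR 8mer of Map2k1 (34.9 FPKM) had 0. Of 8 pluripotency genes (median 18.1 FPKM) 6 did: Sall4 and Tcl1 had 7 reads each, Tfcp2l1 5 and Esrrb 3, and Tbx3 and Nr5a2 had 0. The microRNA pathway share was 85.7% (57.2 to 98.2%), against 37.4% of all genes with a site at 4 to 16 FPKM. The FGF, insulin and PI3K share was 50% (23.0 to 77.0%), an interval that includes this 37.4%. For apoptosis it was 33.3% (4.33 to 77.7%), which includes the 22.6% of all genes at 1 to 4 FPKM. For pluripotency it was 75% (34.9 to 96.8%), which includes the 49.3% at 16 to 64 FPKM. Each of these lists is small, and none was tested against genes of like expression.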

How the data were processed

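Mouse embryonic stem cells with tagged or untagged human Ago2 were profiled by iCLIP, 1 library each, and the files used are those of the tagged library. Per the submitters' processing notes, the tools included TopHat and Bowtie and the builds were NCBIM37 and mm9; no versions or roles are stated. How clusters were called, where expression values came from and how duplicate and repeat reads were treated is not stated there either. Site coverage was deposited in rpm; 100% of 1641948 entries were whole multiples of 1.27 rpm within 0.001, which gave whole reads of 789000. Isoform levels are in FPKM, calculated by the authors, PhastCons a conservation score and the log2 coverage column a log2 value, all per the file headers. Peak height is a signal in reads, per the file headers. The deposited cluster score and crosslink columns hold other joined text. The untagged number was solved from the authors' log2 ratio as a whole number, matched within 0.005 in all 5995 clusters used, and how it was scaled is not stated.

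Sites were made distinct by position and strand. For a position listed more than once, the entry of highest FPKM was kept, which for 204 positions also set the region. Expected support came from 966 control 8mers, without those overlapping a listed match, by region and stratum of 0.5 log2 FPKM. Of 6211 deposited clusters, 216 across splice junctions were left out. An overlap needed 1 nt or more on 1 strand. Folds against 0 use a floor of 3 counts. No p was computed from sites or genes, since they are not replicates. Coordinates are 1-based, mm9. The reference annotation, on GRCm38.p6, served for symbols and microRNA sequences only.

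The sites, gene lists and comparisons were chosen with earlier results of these data known. Named are the 12 sites with most reads, the 12 genes with most supported sites, the 12 clusters of lowest p over a site, the 5 genes with most sites and, per list, up to 4 genes with most reads and up to 3 of highest FPKM with a site and no read. Target genes are all described, and a few genes that the rule names are left out. Counting functions were tested on simulated data. Python 3.11.15, pandas 2.3.3 and scipy 1.17.1 were used. Alternatives were at least 2 reads, at least 1 FPKM, other handling of nested, overlapping and repeated sites, wider strata, a stricter cluster p and sites wholly inside clusters, with 3 kinds added after seeing the data.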

Additional observations from a re-analysis of the deposited data

How the results depend on the processing

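Of 37 alternatives, 24 left the value within the main counting interval and 13 moved it outside. Whether a direction turned was not checked. Asking for at least 2 reads lowered the supported share to 15.2% in 3' UTRs (control 3.83%), 6.12% in coding sequence (control 1.87%), 14.9% at 3' UTR sites shared with miR-103 and miR-107 and 7.53% at coding sites in tandem, while observed over expected support in 3' UTRs was 3.81 and the 8mer share 1.63 times that of 7mers, against 1.36 with 1 read. Keeping only transcripts of at least 1 FPKM gave 36.7%, 23.4%, 36.01% and 23.0% for the same 4 shares, with control at 14.4% in 3' UTRs and 10.2% in coding sequence, and 5.07% of 3' UTR sites in a cluster. With clusters at p under 0.01 that share was 2.34% (control 0.470%). Control 8mers of like base makeup gave 1.94 in place of 2.52. Keeping nested 7mers, counting each run of overlapping sites once, leaving out sites that overlap or lie within 30 nt of other listed matches, using every entry and using wider strata all stayed within the interval. No paired analysis was possible because each line has 1 library. Depth limits single sites, since 57.8% of supported sites rest on 1 read.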

Other observations

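The ranking of the family depends on which measure is used. Among the 50 listed seeds, TGCTGCT was first by number of supported 3' UTR sites, rank 7 by the share supported and rank 8 by the share in enriched clusters; in coding sequence the ranks were 1, 6 and 13. The match also had the most positions in both regions.

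Reads without matching expression were seen at single sites: besides Slc25a42 (39 reads at 0.223 FPKM) and Tmem214, a 3' UTR 8mer of Tmem87b had 15 reads with its isoform listed at 0.232 FPKM, named after its value was seen. The FPKM is that of the listed isoforms, and other isoforms of these genes were not analysed here.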
